A study of Mus musculus with 9 samples.

Results

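The Mediator kinase module was followed through its 7 mouse genes, Med12, Med12l, Med13, Med13l, Cdk8, Cdk19 and Ccnc, which were taken by gene symbol from a count table of 55487 genes. All 7 were in the table and all 7 were among the 16955 genes with enough counts to be tested. The module was selected on the measured counts of Med12l in KD and OE against WT, which were known when the genes were chosen. Med12l is therefore described without a test, and the other 6 genes were tested in a fit over all genes.

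Mediator is the large complex that carries signals from DNA-bound transcription factors to RNA polymerase II. Its kinase module binds the core complex reversibly and holds 4 kinds of subunit: a kinase (CDK8 or CDK19), its partner cyclin C, the kinase-activating subunit MED12 or MED12L, and MED13 or MED13L, through which the module docks on the core. The paralogs of a kind replace each other, so that a given module holds 1 of each pair. Cells use the module both to restrain and to promote transcription, partly by phosphorylating transcription factors.

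RNA was sequenced from 9 libraries of MCEC, an established mouse line labelled as cardiac endothelial cells. The design set 3 libraries each of wild-type cells (WT), Zbtb46 knockdown cells (KD) and cells made to overexpress Zbtb46 (OE) side by side, and asked how expression differs among them. Zbtb46 encodes a zinc finger transcription factor. The labels do not say by what means Zbtb46 was lowered or raised, whether each line is 1 clone, or whether replicates are separate cultures, so p-values measure the spread between these libraries. No library from cells with a control vector was analysed here.

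Total counts ran from 39491828 to 55745849 per library. Ribosomal RNA, that of mitochondria included, took 7.44% to 17.3% of counts in WT, 9.55% to 12.0% in KD and 14.4% to 18.2% in OE. Zbtb46 itself was at 13.7 ± 0.623 CPM (SD, n = 3) in WT, against 11.2 ± 0.537 CPM in KD and 191 ± 2.67 CPM in OE, where CPM are counts scaled to one library total. This is a log2 difference from WT of -0.28 in KD and 3.81 in OE, and neither group overlapped WT. Of 12 endothelial markers, 7 stayed under 1 CPM in every library, Pecam1, Cdh5 and Erg among them, with Erg at 0 counts. The summed endothelial markers, mostly Eng, ran from 129.5 to 142.6 CPM in WT, 112.9 to 117.9 in KD and 87.0 to 94.4 in OE. The 3 fibroblast markers, mostly Dcn, summed to 108.8 to 119.4 CPM in WT, 108.3 to 116.2 in KD and 50.1 to 50.2 in OE. Among them, Lum had at most 2 counts in a library. The endothelial sums did not overlap between any groups, while the fibroblast sums overlapped between WT and KD and were lower in OE. Most of that fibroblast drop lay in Dcn, with a smaller change in Pdgfra. The part of these markers in the results on the module was not tested. In bulk RNA, fewer cells that express a gene and less of its RNA per cell cannot be told apart.

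Because 3 of the 4 kinds of subunit come as paralog pairs, the longest identical stretch that the coding sequences of each pair share is shown. It tells whether a read of 150 bases could fit both genes. Capitals mark the identical run, and lower case the 20 bases on each side, from GENCODE M21 transcripts on GRCm38, in the direction of the mRNA.
Med12: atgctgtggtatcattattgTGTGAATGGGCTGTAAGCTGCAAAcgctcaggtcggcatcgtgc
Med12l: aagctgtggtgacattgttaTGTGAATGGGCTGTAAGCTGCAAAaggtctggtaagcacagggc
Med13: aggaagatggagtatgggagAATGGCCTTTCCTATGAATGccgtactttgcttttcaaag
Med13l: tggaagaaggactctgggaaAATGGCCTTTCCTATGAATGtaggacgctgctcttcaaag
Cdk8: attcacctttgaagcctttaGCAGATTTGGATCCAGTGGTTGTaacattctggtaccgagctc
Cdk19: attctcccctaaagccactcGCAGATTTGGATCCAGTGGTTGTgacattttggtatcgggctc
The run was 24 bases for the MED12 pair, 20 for the MED13 pair and 23 for the kinases, against a read length of 150 bases. It lay at chrX:101278464-101278487 on the plus strand in coding exon 11 of 45 annotated exons of Med12, and at chr3:59082989-59083012, plus strand, in exon 11 of 44 of Med12l. For Med13 it was chr11:86345986-86346005 on the minus strand, exon 3 of 30, and for Med13l chr5:118671036-118671055 on the plus strand, exon 3 of 31. For Cdk8 it was chr5:146286155-146286177 and for Cdk19 chr10:40466685-40466707, both on the plus strand in exon 6 of 13. Each run was far shorter than a read, so the coding sequences of a pair differ within any read that lies in them. How reads that fit several places were counted is not given in the sources used here.

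Med12l (ENSMUSG00000056476; chromosome 3, 59005825 to 59318682, plus strand, GRCm38) encodes the alternative to MED12. The WT libraries 1 to 3 held 0, 2 and 0 counts of it, the KD libraries 818, 608 and 720, and the OE libraries 658, 622 and 656. In CPM these were 16.3, 15.3 and 14.8 in KD and 14.02, 12.6 and 14.6 in OE. Med12l RNA was thus at or near 0 in all 3 WT libraries and present in all 6 others, in cells with less Zbtb46 mRNA and in cells with more. The KD mean was 15.4 ± 0.762 CPM (SD, n = 3) and the OE mean 13.7 ± 1.04 CPM. Against the 2 counts of all WT libraries, the ratio was 1097 in KD and 973 in OE, as a description. A base of 2 counts is too low to fix the size of either ratio. With every WT library set at 3 counts, above what was observed, the ratios were 235.3 and 209.3. The OE mean was 0.890 of the KD mean, and the lowest KD library lay above the highest OE library. Among the 16955 genes tested, Med12l stood above 0.112% in WT, 53.6% in KD and 51.9% in OE. Med12l passed the count filter through KD and OE alone and was chosen on these counts. Its low rank in WT is thus no separate result. KD and OE are set against the same 3 WT libraries, here and below, so the pair of differences is not independent.

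**Figure D1:**
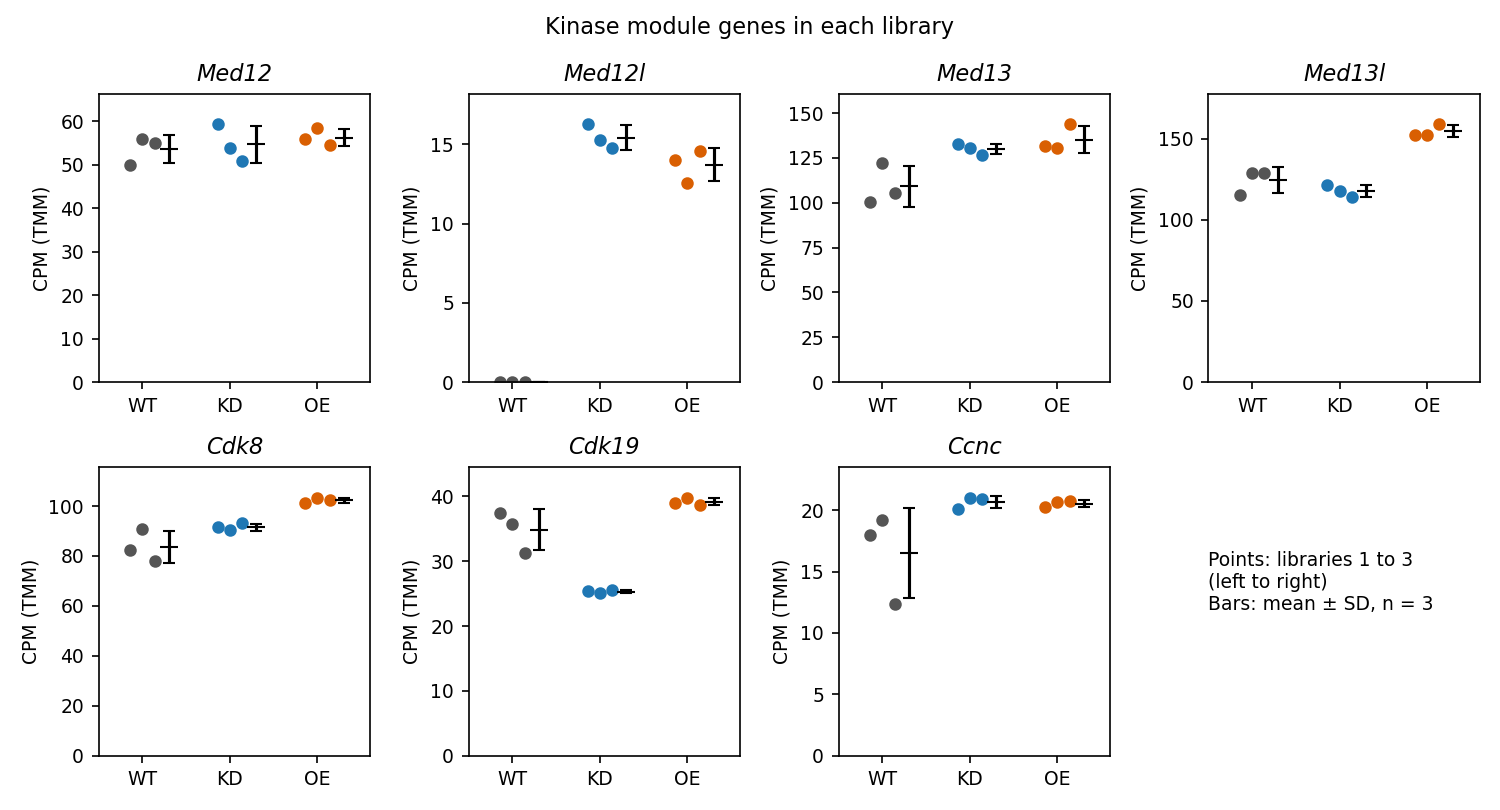
Level of each kinase module gene in CPM with TMM scaling (y axis, from 0) in the WT, KD and OE libraries (points, libraries 1 to 3 from left to right; bars, mean ± SD, n = 3). Med12l lies at or near 0 in WT and between 12.6 and 16.3 CPM elsewhere, Cdk19 is lowest in KD, and Med13l and Cdk8 are highest in OE.

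Med12l was chosen for its step from absence, so its place among the genes below was fixed in advance. In all, 33756 genes had at most 3 counts in every WT library. They include many with no count in any library, as only 33519 of the 55487 genes had at least 1 count. Of the 33756, 5 reached a mean of 5 CPM in KD and 3 in OE. These 3 were the same in both groups and were Med12l, Actc1, which encodes cardiac muscle actin, and Gm42427, a predicted gene. Gm42427 and the pair past the limit in KD alone, Scn2b and Gm42031, were named after their values were seen. Likeness to Med12l in log2 CPM over the 9 libraries was searched in 9966 genes, with predicted-gene names such as Gm42427 left out. The closest of those searched was Actc1, with a Pearson r of 0.997 given as a description. Actc1 had 0 counts in WT and 7.21 ± 0.642 CPM (SD, n = 3) in KD and 5.39 ± 0.854 CPM in OE. Next came Vmn1r43, annotated as a vomeronasal receptor (r 0.991), with 33.9 CPM in WT, 102.7 in KD and 90.3 in OE. Ppp2r5b, a regulatory subunit of protein phosphatase 2A (r 0.989), Fbxo25, an F-box protein of ubiquitin ligases (r 0.988), and Wdr75, a factor of ribosome biogenesis (r 0.979), completed the 5. All 5 were higher in KD and in OE than in WT, which is what the measure selects. They lie on chromosomes 2, 6, 19, 8 and 1, none on chromosome 3.

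Med12l spans several other genes, so counts of neighbours were read beside its own. Of 38 other genes annotated within 500 kb, 8 overlapped it, 7 of them on the opposite strand. Of these 8, 5 had 0 counts in every library, the purine receptor genes P2ry12 and P2ry13 among them. Gpr171 had at most 1 count and P2ry14 at most 4. The overlapping genes other than Igsf10 therefore held 0 to 4 counts in a library, against 608 to 818 for Med12l in KD and OE.

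Igsf10, an immunoglobulin superfamily gene that runs into the 3′ end of Med12l from the opposite strand, shares 1948 exonic bases with it, 15.3% of the exonic bases of Med12l. Its counts were 6, 5 and 12 in WT, 0, 0 and 0 in KD, and 39, 14 and 25 in OE. Igsf10 was thus at 0 in the KD libraries, where Med12l was highest, which allows up to 3 counts in each. Igsf10 passed the count filter through OE alone, so its OE levels are described without a test. In OE it was higher than in WT by 1.72 on the log2 scale (SE 0.56), and every OE library lay above every WT and KD library. Between KD and WT, it was lower in KD (adjusted p 0.00413) by the quasi-likelihood test of edgeR (Benjamini-Hochberg). That comparison, too, was tested only because of the OE counts. Counts this low are weakly measured. In addition, even numbers made up 64.5% of all values from 1 to 20 in the table, and the cause of this was not tested.

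Farther out, 12 of the 38 genes, Igsf10 included, reached 10 counts in a library. Siah2, a ubiquitin ligase gene, rose in both groups, from 20.9 ± 0.625 CPM (SD, n = 3) in WT to 27.2 ± 1.66 in KD and 30.3 ± 1.14 in OE, with log2 differences of 0.39 and 0.54. Serp1, a protein of the endoplasmic reticulum membrane, rose in KD by 0.51 (adjusted p 1.10e-05, edgeR's quasi-likelihood test) and stood at 0.07 in OE (adjusted p 0.387). Selenot rose by 0.19 in KD and 0.16 in OE, and Eif2a, a translation initiation factor, by 0.13 in OE. The other 7 (Rpl13-ps6, Gm8276, 6720482G16Rik, Gm8234, Gm38208, Gm37579 and Gm5539) did not pass the test in either comparison or had too few counts to be tested. The nearest expressed gene upstream, the pseudogene Rpl13-ps6, had 4.17 ± 0.373, 4.64 ± 1.65 and 3.13 ± 0.402 CPM in WT, KD and OE. The median log2 difference of the tested genes in the surrounding 20 Mb window was 0.06 in KD and 0.03 in OE.

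**Figure D2:**
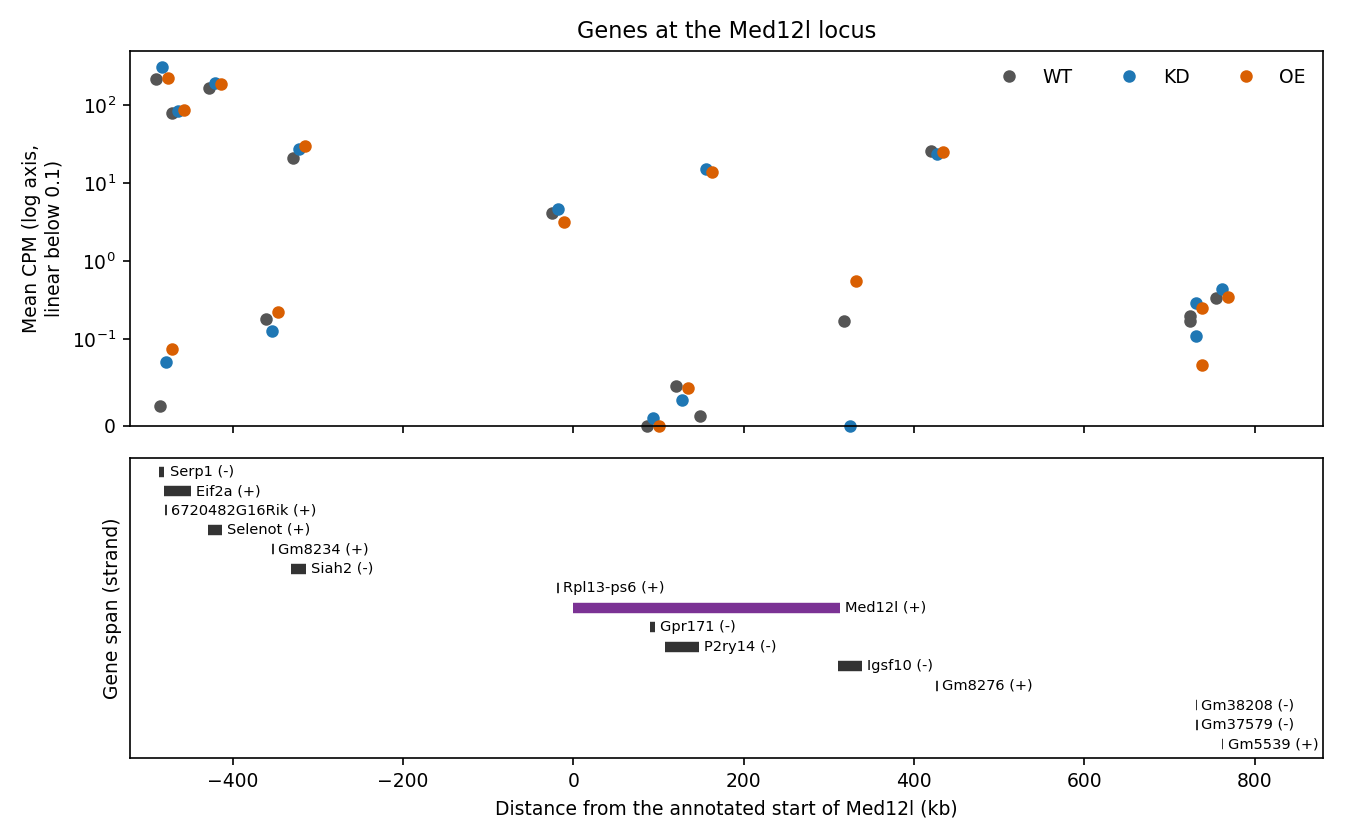
Med12l and genes within 500 kb that reach 10 counts in a library, or overlap Med12l with at least 1 count: mean CPM in WT, KD and OE (top; log axis, linear below 0.1, n = 3) and gene spans with strand (bottom) against distance from the annotated start of Med12l in kb. The drawn genes inside Med12l, Gpr171 and P2ry14, lie at or near 0 in all groups, while Med12l itself lies at 15.4 CPM in KD and 13.7 CPM in OE.

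Med12 (ENSMUSG00000079487; chromosome X, 101274030 to 101297465, plus strand), the usual activating subunit, passed the test in no comparison. It measured 49.9, 55.8 and 55.0 CPM in WT libraries 1 to 3, 59.3, 54.0 and 50.8 in KD, and 55.9, 58.4 and 54.5 in OE. The 3 groups overlapped throughout. Its log2 difference from WT was 0.03 (SE 0.082, adjusted p 0.802) in KD and 0.07 (SE 0.058, adjusted p 0.409) in OE by the quasi-likelihood test of edgeR (Benjamini-Hochberg). The OE libraries against KD gave 0.04 (adjusted p 0.639). Med12l RNA thus stood beside a Med12 level whose mean moved by less than the SD of the WT libraries.

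Per kilobase of exon, Med12 stood at 6.95 CPM per kb in WT, 7.10 in KD and 7.30 in OE, and Med12l at 1.21 in KD and 1.08 in OE. Med12l then made up 14.2%, 14.6% and 14.9% of the summed level of the pair in KD libraries 1 to 3 and 13.1%, 11.5% and 13.9% in OE. In WT the share was 0.012% on average. The sum of the pair was 1.195 times WT in KD and 1.205 times WT in OE.

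**Figure D3:**
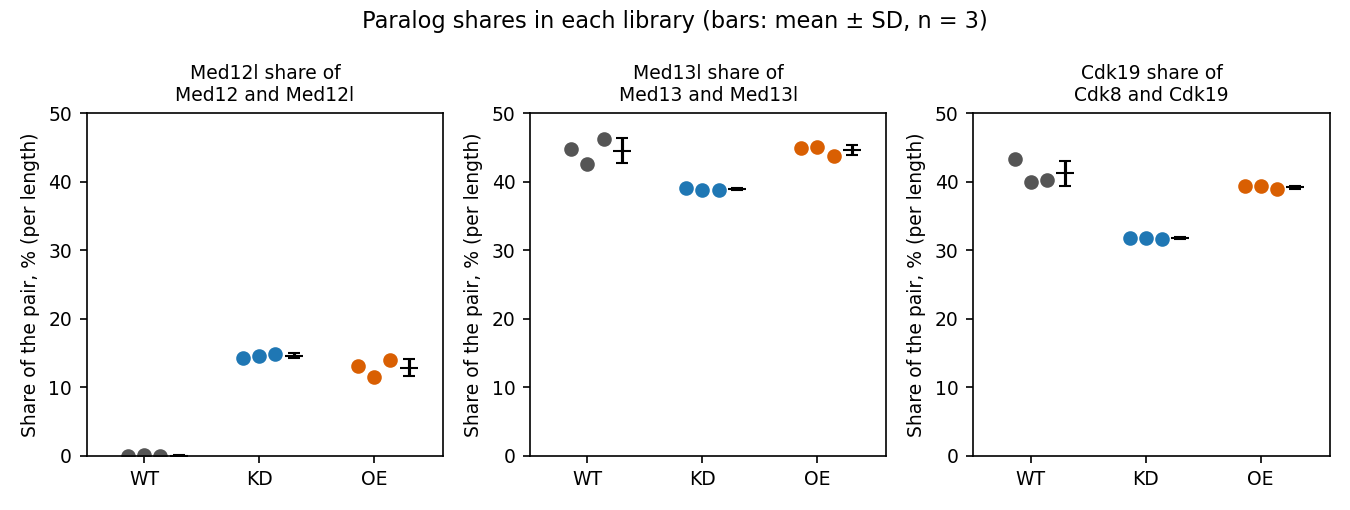
Share of the second paralog in the summed per-length level of each pair, in percent (y axis), by group (points, libraries; bars, mean ± SD, n = 3): Med12l of Med12 and Med12l, Med13l of Med13 and Med13l, and Cdk19 of Cdk8 and Cdk19. Med12l moves from 0.012% in WT to 14.6% in KD and 12.9% in OE, and the Med13l and Cdk19 shares are lowest in KD.

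Med13 (ENSMUSG00000034297; chromosome 11, 86267033 to 86357602, minus strand), which links the module to core Mediator, was higher in both altered groups. It measured 100.2, 122.0 and 105.5 CPM in WT, 132.7, 130.8 and 126.8 in KD, and 131.4, 130.4 and 143.7 in OE. Every KD and OE library lay above every WT library, and KD and OE overlapped each other. The rise was 18.9% in KD (log2 0.25, SE 0.087, adjusted p 0.00617) and 23.6% in OE (log2 0.31, SE 0.096, adjusted p 0.000619) by the quasi-likelihood test of edgeR (Benjamini-Hochberg). In KD the call was lost when WT replicate 3 was left out (0.23, adjusted p 0.0577) and under scaling by library totals (0.21, adjusted p 0.0802), both with edgeR.

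Part of Med13 is overlapped by Brip1os, a non-coding gene on the plus strand that shares 800 exonic bases with it, 7.38% of its exonic bases. Brip1os had 4688 to 8356 counts in a library, up to 128.3% of the Med13 count, and since the use of strand in counting is not given, the reads of the shared bases cannot be assigned with certainty. Its level was 129.7 ± 10.2 CPM (SD, n = 3) in WT, against 129.4 ± 1.72 in KD and 102.8 ± 1.26 in OE. In OE it thus fell by 0.34 on the log2 scale (adjusted p 1.47e-05, edgeR's quasi-likelihood test) while Med13 rose. In KD it differed by -0.004 (adjusted p 0.968).

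The 3 genes most like Med13 over the 9 libraries, of the same genes searched, were Scaf11, a splicing-associated gene (r 0.997), Tpr, a nuclear pore component (r 0.983), and Rad18, a ubiquitin ligase of DNA damage tolerance (r 0.980). Scaf11 rose by 0.15 in KD and 0.20 in OE on the log2 scale. Tpr stood at 0.14 in KD, where it did not pass the test (adjusted p 0.0542, edgeR's quasi-likelihood test), and rose by 0.21 in OE. Rad18 rose by 0.17 and 0.18.

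Med13l (ENSMUSG00000018076; chromosome 5, 118560679 to 118765438, plus strand), the paralog of Med13, rose in OE and not in KD. It measured 115.5, 128.8 and 129.1 CPM in WT, 121.3, 117.8 and 114.3 in KD, and 152.2, 152.3 and 158.7 in OE. The OE libraries all lay above the WT and KD libraries, and KD overlapped WT. The difference from WT was 24.0% in OE (log2 0.31, SE 0.056, adjusted p 2.19e-05) and -5.40% in KD (log2 -0.08, SE 0.058, adjusted p 0.266) by the quasi-likelihood test of edgeR (Benjamini-Hochberg). Between OE and KD, tested directly, it was 31.1% (log2 0.39, SE 0.032, adjusted p 7.77e-07, edgeR's quasi-likelihood test). Genes annotated inside Med13l had at most 12 counts in a library.

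Within the MED13 pair, the share of Med13l was lowest in KD. Per kilobase of exon, Med13l made up 44.7%, 42.6% and 46.2% of the pair in WT, 39.1%, 38.8% and 38.8% in KD, and 44.9%, 45.1% and 43.7% in OE. The KD libraries lay below all others, with a difference of -5.63 percentage points from WT and 5.66 points between OE and KD, each with a two-sided exact permutation p of 0.1, the smallest that 3 against 3 libraries can give. OE and WT differed by 0.030 points and overlapped (exact permutation p 1). With Benjamini-Hochberg adjustment over 6 such tests of shares, the former permutation p-values became 0.12 each. With the longest transcript as length the shares were 56.4%, 50.7% and 56.5% in WT, KD and OE, higher throughout, with a difference of -5.75 points in KD from WT.

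The main kinase gene, Cdk8 (ENSMUSG00000029635; chromosome 5, 146231230 to 146302874, plus strand), rose in OE. It measured 82.2, 90.6 and 78.0 CPM in WT, 91.5, 90.2 and 93.0 in KD, and 101.1, 103.2 and 102.5 in OE. The OE libraries lay above all others, and KD overlapped WT replicate 2. Relative to WT, Cdk8 was 22.2% higher in OE (log2 0.29, SE 0.064, adjusted p 0.000103) and stood at 0.13 on the log2 scale in KD (SE 0.065, adjusted p 0.0750) by the quasi-likelihood test of edgeR (Benjamini-Hochberg). Without WT replicate 2 the KD difference was 0.19 and passed the test (adjusted p 0.00161, edgeR). OE exceeded KD by 0.16 (SE 0.015, adjusted p 0.0140, edgeR), and this call was lost without KD replicate 1 (adjusted p 0.0600), KD replicate 2 (0.0693) or OE replicate 2 (0.0523) and with library totals (0.158).

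Cdk19 (ENSMUSG00000038481; chromosome 10, 40339564 to 40483818, plus strand), the alternative kinase, had the largest difference of the 6 tested members in KD against WT and in OE against KD. It measured 37.4, 35.8 and 31.3 CPM in WT, 25.4, 25.0 and 25.5 in KD, and 38.9, 39.8 and 38.7 in OE. The KD libraries lay below all others, and the OE libraries lay just above WT. Relative to WT, Cdk19 fell by 27.3% in KD (log2 -0.46, SE 0.078, adjusted p 2.71e-05) by the quasi-likelihood test of edgeR (Benjamini-Hochberg). OE exceeded KD by 54.6% (log2 0.63, SE 0.014, adjusted p 7.61e-08, edgeR's quasi-likelihood test). Both calls held in all 19 alternative settings, from -0.53 to -0.41 in KD against WT and from 0.60 to 0.69 in OE against KD.

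The rise of Cdk19 in OE over WT, by 12.4% (log2 0.17, SE 0.078, adjusted p 0.0430, edgeR's quasi-likelihood test), was not held as firmly. It was lost on leaving out WT replicate 3 (0.09, adjusted p 0.247), any 1 of the 3 KD or any 1 of the 3 OE libraries (adjusted p 0.0580 to 0.120, edgeR), and in 4 other settings. The antisense gene Cdk19os had at most 2 counts in a library. Most like Cdk19 over the libraries were Ier5, an immediate early response gene (r 0.987), St6gal1, a sialyltransferase (r 0.986), and Ftl1, the ferritin light chain (r 0.986). St6gal1 moved over a far wider range, at 3.90 ± 1.32 CPM (SD, n = 3) in WT, against 0.362 ± 0.117 in KD and 8.38 ± 0.248 in OE. Ier5 was at -0.35 in KD and 0.16 in OE on the log2 scale, the latter without passing the test (adjusted p 0.0770, edgeR's quasi-likelihood test), and Ftl1 fell by 0.27 in KD and rose by 0.14 in OE.

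Within the kinase pair, Cdk19 held 43.3%, 39.9% and 40.3% of the summed per-length level in WT, 31.8%, 31.8% and 31.6% in KD, and 39.3%, 39.3% and 38.9% in OE. The KD share differed from WT by -9.44 percentage points, the OE share from KD by 7.42 and the OE share from WT by -2.02, and no pair of groups overlapped. Each of these 3 differences had a two-sided exact permutation p of 0.1, the smallest possible here, and 0.12 after Benjamini-Hochberg adjustment over 6 tests. The share itself depends on the length used: with the longest transcript it was 21.8%, 15.6% and 20.4% in WT, KD and OE, again lowest in KD, with a difference of -6.20 points from WT. Per kilobase of merged exons, the summed level of both kinases was 14.5 ± 1.05 CPM per kb (SD, n = 3) in WT, against 13.6 ± 0.183 in KD and 17.1 ± 0.184 in OE.

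Ccnc (ENSMUSG00000028252; chromosome 4, 21727701 to 21759922, plus strand) encodes cyclin C, the partner that both kinases need. It measured 18.0, 19.2 and 12.4 CPM in WT, 20.1, 20.998 and 20.9 in KD, and 20.2, 20.6 and 20.8 in OE. Both altered groups lay above WT, but WT replicate 3 stood far below the other WT libraries. The log2 difference was 0.32 in KD (SE 0.20, adjusted p 0.0663), which did not pass, and 0.31 in OE (SE 0.20, adjusted p 0.0497), which did, by the quasi-likelihood test of edgeR (Benjamini-Hochberg). Without WT replicate 3 they were 0.15 and 0.14, and the OE call was lost (adjusted p 0.163, edgeR); the OE call was also lost without any 1 of the KD or OE libraries (adjusted p 0.0662 to 0.118, edgeR). The KD difference passed without WT replicate 2 (0.46, adjusted p 0.00326, edgeR). KD and OE differed by -0.01 (SE 0.023, adjusted p 0.961, edgeR). Tstd3, which overlaps 276 exonic bases of Ccnc from the minus strand with 228 to 451 counts, stood at -0.22 in KD and -0.07 in OE and did not pass the test.

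Of the 6 tested members, 1 rose (Med13), 1 fell (Cdk19) and 4 did not pass in KD against WT, where 21.3% of all genes passed, 11% higher and 10.4% lower. In the same comparison 3 did not overlap WT, Med13 and Ccnc above and Cdk19 below, as did 34.7% of all genes, 17.6% above and 17% below. The median log2 difference of the 6 was 0.08, against -0.002 over all genes. In OE against WT, 5 rose (Med13, Med13l, Cdk8, Cdk19 and Ccnc) and 0 fell, where 36.4% of all genes passed, 17% higher and 19.5% lower. The same 5 lay above WT without overlap, against 45.1% of all genes, 21.7% above and 23.5% below. The median of the 6 was 0.30, against 0.002 over all genes. The calls of Cdk19 and Ccnc among these 5 were close to the threshold, as given above. In OE against KD, 3 rose (Med13l, Cdk8 and Cdk19) and 0 fell, where 41.5% of all genes passed, 19.4% higher and 22.1% lower. The same 3 lay above KD without overlap, against 55.4% of all genes, 27.2% above and 28.2% below, and the median of the 6 was 0.11. Windows of 20 Mb around the members had medians between -0.05 and 0.09 in the 3 comparisons, smaller in size than any called difference of a member.

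**Figure D4:**
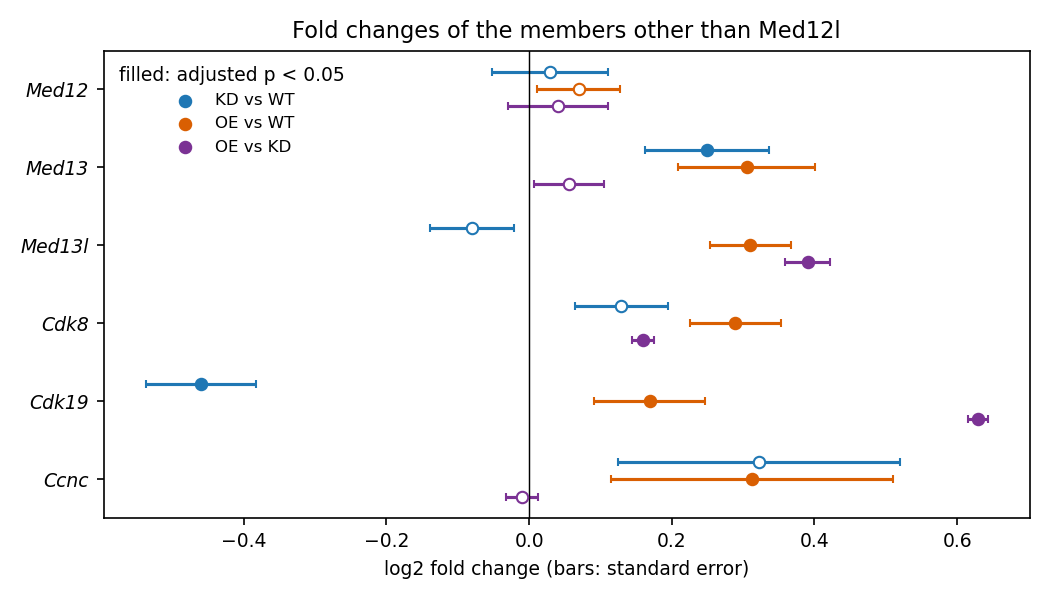
Log2 difference (x axis) of the 6 tested kinase module genes in KD against WT, OE against WT and OE against KD (points; bars, ± SE from the SDs of log2 CPM, 3 libraries a group; filled points passed the test, open points did not). In OE against WT 5 of 6 genes lie between 0.17 and 0.31 and Med12 at 0.07, whereas in KD against WT Cdk19 lies at -0.46 and Med13 at 0.25.

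Compared per kilobase of merged exons, the levels of the members held the same order in each group. In WT, Med13 was highest at 10.1 ± 1.05 CPM per kb (SD, n = 3), followed by Cdk8 at 8.51 ± 0.653, Med13l at 8.07 ± 0.503, Med12 at 6.95 ± 0.416, Cdk19 at 5.96 ± 0.541, Ccnc at 3.23 ± 0.713 and Med12l near 0. The ranges of mean ± SD overlapped between Med13 and Cdk8 and between Cdk8 and Med13l. In KD, Med13 stood at 12.0 ± 0.276, Cdk8 at 9.31 ± 0.143, Med13l at 7.64 ± 0.228 and Med12 at 7.10 ± 0.552, the latter pair within their spread, with Cdk19 at 4.33 ± 0.041, Ccnc at 4.04 ± 0.094 and Med12l at 1.21 ± 0.060 below. In OE the order was again Med13 (12.5 ± 0.684), Cdk8 (10.4 ± 0.109), Med13l (10.0 ± 0.241), Med12 (7.30 ± 0.254), Cdk19 (6.70 ± 0.093), Ccnc (4.02 ± 0.055) and Med12l (1.08 ± 0.082). This order depends on the length used, since the merged exons of Cdk8 and Med13l are far longer than their longest transcripts. Per kilobase of the longest transcript, a choice added after seeing the data, Cdk8 was highest in WT at 21.5 ± 1.65 CPM per kb (SD, n = 3), followed by Med13l at 13.4 ± 0.834, Med13 at 10.4 ± 1.08, Med12 at 7.72 ± 0.462, Cdk19 at 5.997 ± 0.544 and Ccnc at 4.74 ± 1.05. On that scale OE kept this order, and in KD Cdk19 (4.36 ± 0.041) stood below Ccnc (5.94 ± 0.138). Per kilobase of merged exons and summed over all 7 genes, the module stood at 42.8 ± 2.74 CPM per kb in WT, 45.6 ± 0.947 in KD and 52.0 ± 0.825 in OE, or 1.07 and 1.21 times WT. Without Med12l, the sums were 42.8, 44.4 and 50.9 CPM per kb.

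The 26 genes of core Mediator were all tested. In OE against WT 6 rose and 5 fell, so that 42.3% passed, near the 36.4% of all genes, with a median of 0.08. In KD 2 rose and 1 fell, 11.5% against 21.3% of all genes, with a median of -0.04. In KD the 3 were Med17 of the head (0.17, adjusted p 0.0216), Med1 of the middle (0.15, adjusted p 0.0423) and Med25 of the tail (-0.17, adjusted p 0.0104) by the quasi-likelihood test of edgeR (Benjamini-Hochberg). In OE the largest differences were those of Med8 (0.49), Med18 (0.40), both of the head, and Med16 of the tail (-0.41). Med17, called in both, had opposite signs, with -0.31 in OE. The windows around Med8 and Med18 had medians of 0.36 and 0.35 in OE, and that around Med17 had 0.16 in KD and -0.18 in OE, whereas that around Med16 had -0.02. Med14, the backbone of the complex, rose by 0.18 in OE. With window medians removed, 1 core gene was called in KD and 6 in OE, and without KD replicate 2 none was called in KD. The difference between the module and the core in direction was not tested.

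**Figure D5:**
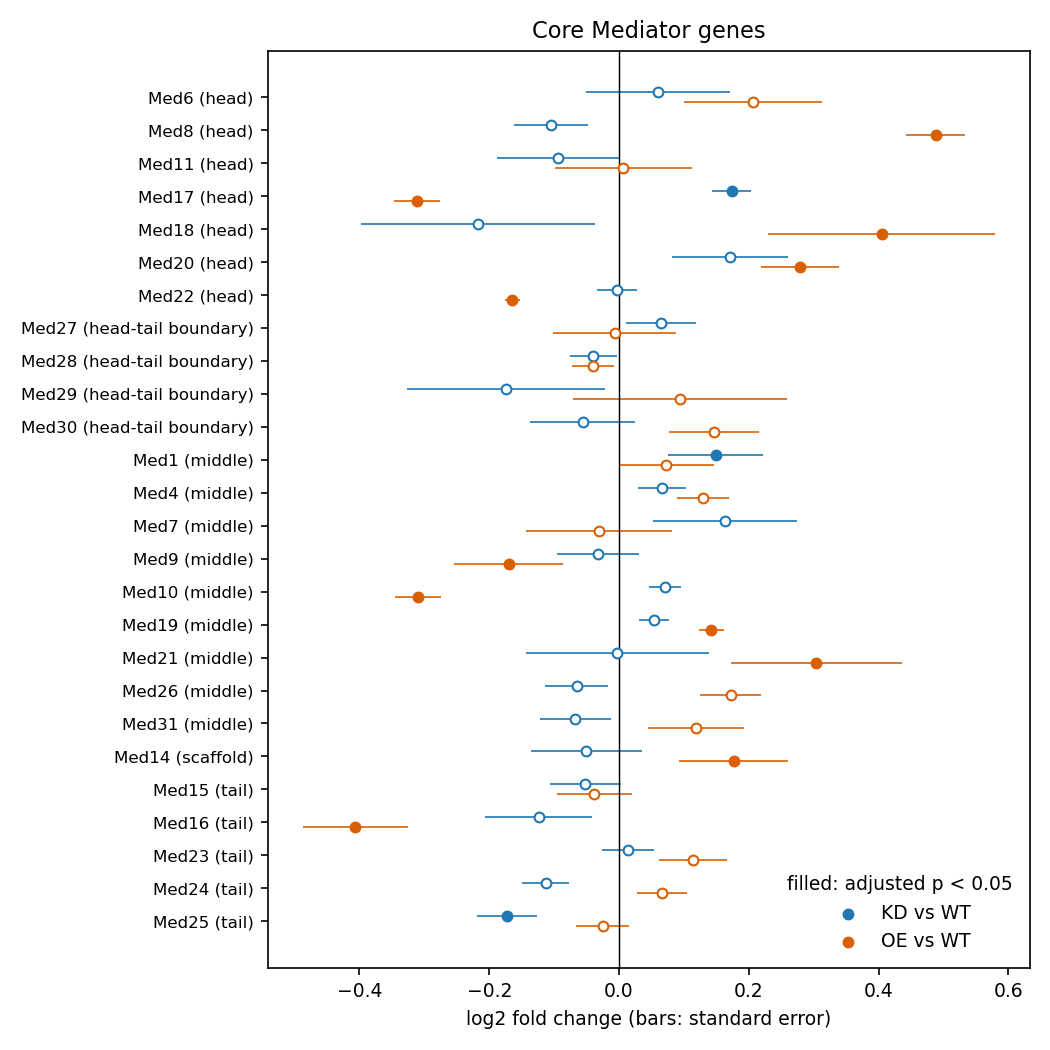
Log2 difference from WT (x axis) of the 26 core Mediator genes, listed by part of the complex, in KD and in OE (points, ± SE; filled points passed the test at an adjusted p under 0.05, open points did not). Core genes spread to both sides in OE, from -0.41 for Med16 to 0.49 for Med8, with 6 filled points above 0 and 5 below.

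Of 12 other kinases and cyclins of transcription, 1 rose and 1 fell in KD, 16.7% against 21.3% of all genes. They were Ccnh, cyclin H of the TFIIH kinase (0.24, adjusted p 0.0329), and Ccnk, cyclin K (-0.19, adjusted p 0.0136), both by edgeR's quasi-likelihood test. In OE, 3 rose and 2 fell, 41.7% against 36.4% of all genes, with a list median of 0.12. The largest differences among those that passed were those of Cdk7, the kinase of TFIIH (-0.47), Cdk11b (0.42) and Ccnh (-0.28). Medians of the windows around these 3 were -0.26, 0.30 and -0.26, of the same sign as the genes. Cdk12 and Cdk13, which phosphorylate the polymerase tail during elongation, rose by 0.19 each in OE. Without KD replicate 2 or KD replicate 3, none of the 12 was called in KD, and without WT replicate 2, 6 were.

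Among 13 genes for known partners and substrates of the module, 2 rose and 2 fell in KD, 30.8% against 21.3% of all genes, with a median of -0.01. In OE 2 rose and 8 fell, 76.9% against 36.4% of all genes (17% higher and 19.5% lower), with a median of -0.14. The balance was not held with window medians removed, a setting that also changed the test from edgeR to limma on log2 CPM. There 3 rose and 4 fell in OE, with a median of -0.06, and 0 rose and 3 fell in KD. Notch1, whose intracellular domain the cyclin C kinase phosphorylates, fell most in OE, from 19.4 ± 3.14 CPM (SD, n = 3) in WT to 7.60 ± 1.25, a log2 difference of -1.36, with 16.2 ± 1.55 CPM in KD. Ctnnb1, the gene of beta-catenin, was at 473.3, 518.6 and 344.6 CPM in WT, KD and OE, a difference of 0.13 in KD and -0.46 in OE. Carm1, whose enzyme methylates MED12, fell by 0.45 in OE. Windows around Ctnnb1 and Carm1 had medians of -0.49 and -0.35 in OE, and that around Notch1 had -0.03. Among the genes called in KD were Srebf1, a regulator of lipid synthesis (-0.33), and Gli3, of hedgehog signalling (-0.28). Fbxw7, the ubiquitin ligase subunit that marks MED13 and MED13L for degradation, did not pass in either comparison.

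Promoter windows of 250 bases before the RefSeq start (GRCm38.p6) were matched for 6 of the 7 members; Cdk19 was not among them. All 6 held at least 1 GC box, GGGCGG on either strand, the sequence bound by SP1-like factors, which 32.7% of all 32851 windows hold. That share is not matched for base composition. The 6 windows were 59.6% to 84% G and C, against a median of 52.4% over all windows. The CRE core TGACGT was in 0 of 6 (6.47% of all windows) and the TATA box TATAAA in 0 of 6 (12.4%), both strands read. CCAAT was found in the window of Ccnc (33.8% of all windows) and the E-box CACGTG in that of Cdk8 (6.02%). The ratio of observed to expected CpG pairs was between 0.805 and 1.16 in the 6 windows, against a median of 0.374 over all windows. The Med12l window, with 72% G and C and a CpG ratio of 0.805, lies downstream of the annotated GENCODE start of the gene and inside a 5′ UTR of 1 of its transcripts, so it may not be the promoter in use here. A match describes letters in a window and shows no binding.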

How the data were processed

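Poly-A RNA was sequenced as read pairs of 150 bases, per the labels' protocols. The authors deposited 1 table of whole-number counts per Ensembl gene for 9 libraries, not normalised, judged from the values. The builds GRCm38 and mm10 are named per the submitters' processing notes, while the aligner, counter and use of strand are not given in the sources used here. Of 55774 rows, 455 repeat 168 genes with identical counts, and each gene was used once, leaving 55487 genes. Every value column matched 1 sample (0 left over). Positions and lengths came from GENCODE M21, which matched 55141 genes by identifier.

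Genes were kept with filterByExpr by group (16955), scaled with TMM and fitted in 1 quasi-likelihood model over all 9 libraries with group as the only term (edgeR 4.0.16, R 4.3.3), with robust dispersions. P-values were Benjamini-Hochberg adjusted over all genes tested, with 0.05 as threshold. CPM are counts divided by the TMM-scaled library total. The SE of a log2 difference comes from group SDs of log2 CPM (prior count 2). Shares of paralogs were compared with an exact two-sided permutation test. The fit was tested on simulated counts. Also used were limma 3.58.1 and DESeq2 1.42.0, and matplotlib 3.10.9, numpy 2.4.6 and pandas 2.3.3 in Python 3.11.15.

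Members and lists were chosen with earlier results of these data known. Beside the 7 members and Zbtb46, the genes named are up to 3 called genes per context list and WT comparison with the largest change, listed genes called in both with the same sign, genes within 500 kb of Med12l with at least 10 counts, and the 5 genes most like Med12l or 3 most like Med13 and Cdk19 among those with a mean of 5 CPM in a group. Predicted-gene names were left out of the search for the genes most like a member. Genes that overlap a member and a few others were named after their values were seen. Not reported here are 1 listed gene and 1 overlapping gene. Alternatives were other scalings, filters and tools, the replicate number as a block, a fit of only the groups compared, removal of 20 Mb window medians, and each library left out. The removal of window medians used limma on log2 CPM in place of edgeR.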

Additional observations from a re-analysis of the deposited data

How the results depend on the processing

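The calls of Cdk19 in KD against WT and in OE against KD, of Med13, Med13l and Cdk8 in OE against WT, and of Med13l in OE against KD kept direction and side of the threshold in all 19 alternatives. Scaling by library totals alone gave Med12 -0.0077 and Med13 0.21 in KD against WT, Cdk19 0.11 and Ccnc 0.25 in OE against WT, and Cdk8 0.13 in OE against KD, where the calls of Med13, Cdk19, Ccnc and Cdk8 were lost. It also moved the share of rises among all called genes from 51.4% to 35.8% in KD and from 46.6% to 31.6% in OE, and upper-quartile factors moved that of OE against KD from 46.8% to 57.6%. Ccnc in KD against WT passed with no filter beyond 1 count (0.32), DESeq2 (0.33), limma-voom (0.34) and the replicate block (0.34). Cdk19 in OE against WT was lost with no filter (0.16), in a fit of only the 2 groups (0.16) and with window medians removed (0.13), and Ccnc with only the 2 groups (0.31) and with windows removed (0.26). Median removal turned Med13 in OE against KD to -0.023, and upper-quartile factors turned Ccnc there to 0.053; neither was called. The cause of these moves was not tested.

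Genes called among core Mediator numbered 1 with library totals and 1 with windows removed in KD, 7 and 6 in OE, and 7 with totals in OE against KD; among kinases and cyclins 1 and 1 in KD, and 8 with upper-quartile factors and 3 with totals in OE. With 3 counts for the whole WT group in place of 3 per library, the Med12l ratio was 730.7 (KD) and 650.1 (OE); since WT held 2 counts, this is no lower bound. Its share of the pair in KD was 15.1% with the longest transcript as length.

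With 1 library left out, ranges against WT in KD were -0.032 to 0.080 for Med12, 0.19 to 0.34 for Med13, 0.083 to 0.19 for Cdk8 and 0.15 to 0.46 for Ccnc, and in OE 0.092 to 0.22 for Cdk19 and 0.14 to 0.44 for Ccnc. In OE against KD they were -0.0093 to 0.095 for Med12, 0.15 to 0.17 for Cdk8 and -0.037 to 0.0023 for Ccnc. The Med13l share in OE differed from WT by -0.93 to 0.88 points. Core Mediator calls ran from 0 to 7 in KD and 7 to 12 in OE, those of kinases and cyclins from 0 to 6 and 3 to 6. The Med12l ratio to 3 counts per WT library ran from 211.0 to 262.4 in KD and 186.7 to 233.4 in OE.

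Replicate numbers did not pair the libraries: deviations of same-numbered libraries correlated by -0.042 to 0.049, and 2 of 9 libraries correlated best with their own number. With the number as a block, 3574 genes were called in KD against WT (3617 without) and 6111 in OE against WT (6174 without), and Ccnc in KD was the only member whose call changed (adjusted p 0.0419, edgeR's quasi-likelihood test). WT replicates differed more than the others, which limits small differences from WT, and the excess of even values among low counts limits what counts of a few reads can show.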
